A study of Mus musculus with 12 samples.

Results

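The genes for the subunits of the proteasome were examined in isolated mouse muscle fibers. Members were taken by gene name, as *Psma1* to *Psma7*, *Psmb1* to *Psmb7*, *Psmc1* to *Psmc6* and *Psmd1* to *Psmd14*. This gave 34 genes of the 55367 gene symbols listed, 14 for the core particle (*Psma* and *Psmb*) and 20 for the cap (*Psmc* and *Psmd*). All 34 were above the low-expression limit of the tests, a mean of 0.02 TPM (transcripts scaled to a common total per sample) in at least 1 group, which left 14428 genes.

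The RNA came from single fibers of the extensor digitorum longus (EDL), a fast hindlimb muscle, freed with collagenase. There were 4 samples each of Young fibers (3–4-month-old mice) and, from 26–28-month-old mice, of Fluo-4 normal and Fluo-4 abnormal fibers. Fluo-4 is a fluorescent calcium indicator, and aged fibers with abnormally bright Fluo-4 were picked out from the others under a fluorescence stereomicroscope. The labels, which call the last groups Aged normal and Aged abnormal, name no genetic change and no treatment, and the study first saw such fibers in males. Young C57BL/6J mice came from a breeder and aged mice from a research center, so that age and origin cannot be told apart. Whether the Young fibers sent for sequencing carried the dye is not given in the sources used here. How many fibers or mice made up a sample is not given in the sources used here, and p-values therefore measure only the spread between these samples, which may be technical.

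The proteasome is the large protease that degrades proteins tagged with ubiquitin, and it removes much of the myofibrillar protein that a wasting muscle loses. Its core particle is a barrel of stacked alpha and beta rings with the cutting sites inside. A cap on the end of the barrel binds the ubiquitin chain, takes it off, and uses a ring of ATPases to unfold the substrate and feed it into the barrel.

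Every sample added up to 1000000 TPM. Read counts were not used here, so the depth is unknown and counting intervals are not given. In each sample 16841 to 17936 symbols were above 0. All 8 myofiber markers were present, and *Myh4*, the myosin of the fastest fibers, made up 96.88% to 98.55% of 4 adult myosin heavy chain transcripts in Young, 93.72% to 99.23% in Fluo-4 normal and 98.94% to 99.66% in Fluo-4 abnormal samples. The summed myofiber markers were at 153316 to 157598 TPM in Young, 132328 to 153429 TPM in Fluo-4 normal and 157242 to 178191 TPM in Fluo-4 abnormal samples. All 3 adipocyte markers were at 0, and the summed markers of satellite, endothelial, fibroblast, Schwann and smooth muscle cells stayed at or under 80.2 TPM. The 6 immune markers summed to 2.07 to 4.0 TPM in Young, 6.11 to 19.6 TPM in Fluo-4 normal and 9.69 to 17.7 TPM in Fluo-4 abnormal samples, and the 3 erythroid markers reached 77.6, 297 and 147 TPM. The part of these cells in the results was not tested.

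TPM is set per transcript length, so levels of different subunits can be compared. Over all 12 samples the highest mean was that of *Psmb6*, a catalytic beta subunit, at 498 TPM, and it was 6.69 times that of the lowest core gene, *Psma2*, at 74.4 TPM. The median of the 14 core means was 213 TPM. Of the cap genes *Psmd8*, a lid subunit, was highest at 298 TPM, and the median of the 20 cap means was 133 TPM. The cap list held 3 genes at a far lower level, *Psmd9* at 15.1 TPM, *Psmd5* at 10.6 TPM and *Psmd10* at 9.98 TPM, whereas the next lowest cap gene, *Psmd13*, was at 73.8 TPM. These 3 encode assembly chaperones, which hold parts of the cap while it is built and are not subunits of the finished particle. The 17 other cap genes lay within 4.04-fold of each other.

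**Figure D1:**
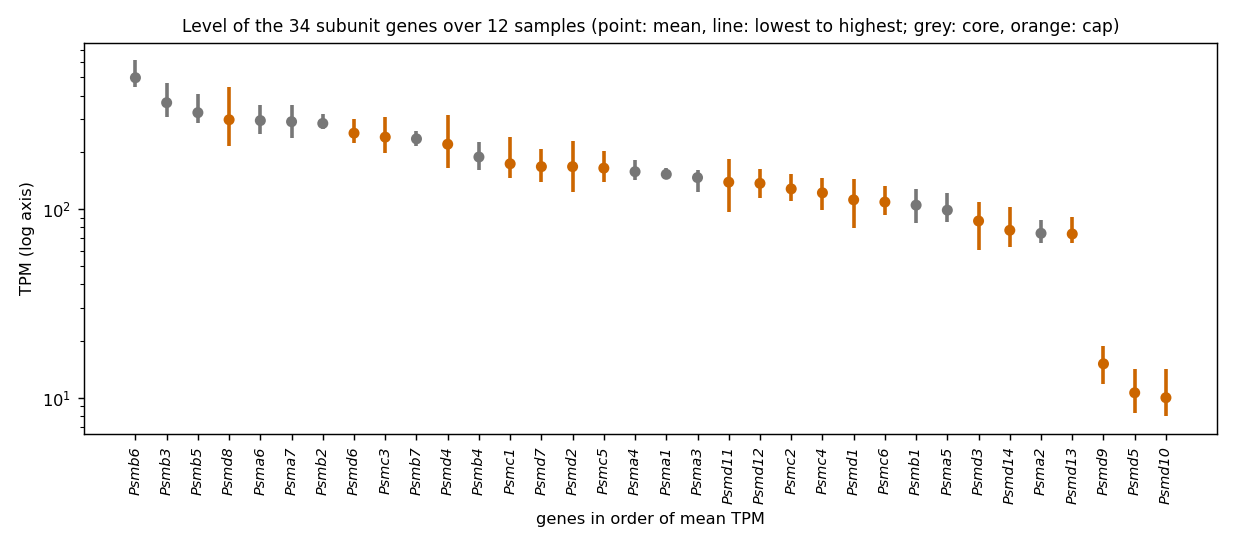
TPM (log axis) of the 34 subunit genes in order of their mean over 12 samples, with a point for the mean and a line from the lowest to the highest sample, core genes in grey and cap genes in orange. *Psmb6* led with 498 TPM, and the chaperones *Psmd9*, *Psmd5* and *Psmd10* lay at 15.1 TPM or below, apart from the other 31 genes.

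Fluo-4 abnormal fibers were first compared with Fluo-4 normal fibers of aged mice, which asks how the fibers with aberrant Fluo-4 staining differ from their neighbors. In TPM as deposited, 12 of the 34 subunit genes were higher in the abnormal fibers and none was lower (limma on log2(TPM + 1), adjusted p under 0.05), where 7.36% of all genes tested were called higher and 9.35% were called in either direction. Most of them were cap genes: 11 of 20 cap genes passed, namely *Psmc1*, *Psmc2*, *Psmc3*, *Psmc5*, *Psmc6*, *Psmd1*, *Psmd4*, *Psmd6*, *Psmd7*, *Psmd8* and *Psmd13*, but only *Psmb1* of the 14 core genes. The median log2 change was 0.31 for the cap and 0.16 for the core, and it was 0.10 for all genes tested. Among genes with a group mean of at least 5 TPM, the range in which all subunits lie, the median was 0.20 and 22.4% of 6348 genes were called higher, with 3 core and 15 cap genes among them.

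The sizes were modest, from 0.23 to 0.61 on the log2 scale for the 12 genes that passed, and the call depended on how samples were scaled. With TMM-type factors, which set the typical gene equal between samples, 1 subunit gene was called higher (*Psmd1*) and 1 lower (*Psmd9*), where 2.12% and 3.76% of all genes were, the core median turned to -0.06, the cap median was 0.10 and the median of all genes moved from 0.10 to 0.00. The factors of abnormal samples exceeded those of normal samples by 0.23 on the log2 scale on average, which is the amount by which a well expressed gene moves between the scalings. Fluo-4 normal 1 had the lowest factor, 0.809, against 0.908 to 1.174 in the other 11 samples. Under these factors 13 of the 14 core genes were fitted lower and 1 higher in abnormal fibers, whereas 18 of the 20 cap genes were fitted higher, against 49.9% of all genes. With the replicate number as a block 19 subunit genes passed, 3 core and 16 cap genes, all 12 among them, where 15.8% of all genes passed. Leaving out Fluo-4 abnormal 2, 3 or 4 or Fluo-4 normal 2 left 3, 5, 5 and 6 calls, and leaving out Fluo-4 abnormal 1 gave 19. With the *Myh4* share of the samples as a covariate 2 calls were left. The share of all genes called with a sample left out or with this covariate is not given here. Those counts cannot be set against it. Set against the all-gene median, the cap was higher by 0.21 in TPM as deposited and by 0.10 with the factors. Set against genes with a group mean of at least 5 TPM, the cap was at 0.11 and the core at -0.04 in TPM as deposited.

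**Figure D2:**
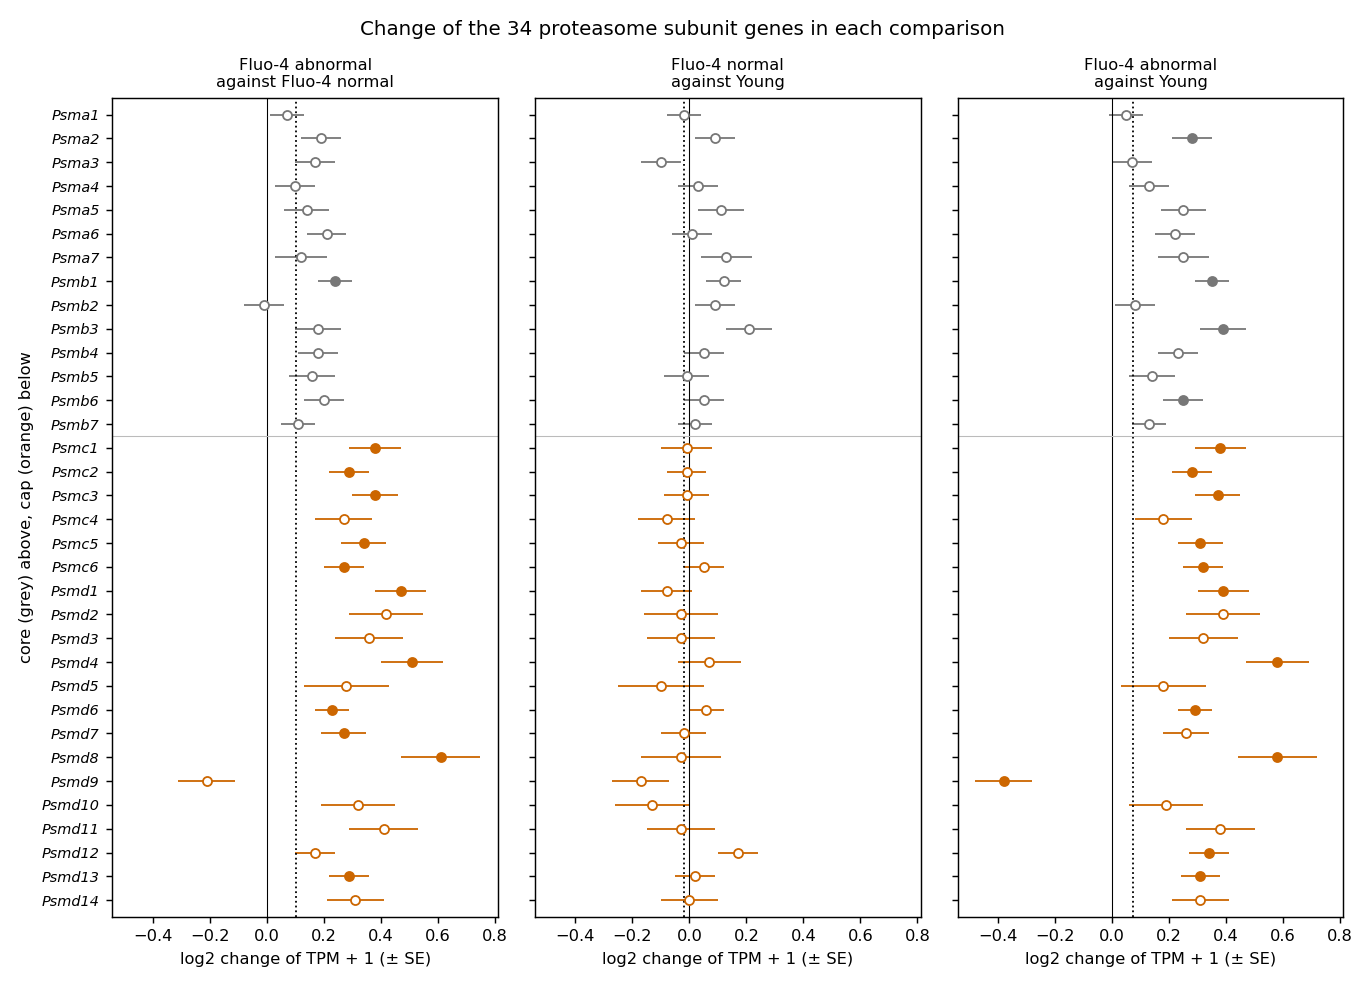
Log2 change of TPM + 1 (± SE) of the 34 subunit genes in 3 comparisons of 4 samples each, core genes in grey and cap genes in orange, with filled points for an adjusted p under 0.05 and a dotted line at the median of all genes tested. In the abnormal fibers 12 genes passed against Fluo-4 normal and 16 against Young fibers, and none passed between Fluo-4 normal and Young; with TMM-type factors the counts were 2, 3 and 0, and 13 of 14 core genes were fitted lower in abnormal than in normal fibers.

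The ATPases *Psmc1* to *Psmc6* form the ring of the cap that unfolds substrates and opens the gate of the core. *Psmc3* was at 207, 199, 228 and 239 TPM in Fluo-4 normal samples 1 to 4 and at 243, 285, 309.8 and 303 TPM in Fluo-4 abnormal samples 1 to 4, with 229, 214, 217 and 217 TPM in Young samples. Every abnormal sample was above every normal and Young sample. It rose by 0.38 (SE 0.08, limma adjusted p = 0.013) against normal fibers.

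*Psmc1* was at 146, 149, 168 and 169 TPM in normal and 178, 209, 199.6 and 241 TPM in abnormal samples, against 157, 165, 158 and 153 TPM in Young samples. The abnormal samples again did not overlap the others, and the change was 0.38 (SE 0.09, limma adjusted p = 0.016). *Psmc2* was at 110.4, 115, 123 and 125 TPM in normal, 133, 144, 153 and 151 TPM in abnormal and 112, 122, 119.8 and 124 TPM in Young samples. Its rise of 0.29 (SE 0.07, limma adjusted p = 0.015) was smaller, and normal and Young samples covered nearly the same range. *Psmc5* was at 139.8, 146, 148 and 167 TPM in normal and 160.4, 202, 197 and 204 TPM in abnormal samples, and it rose by 0.34 (SE 0.08, limma adjusted p = 0.022) although abnormal 1 lay below normal 4. *Psmc6* rose by 0.27 (SE 0.07, limma adjusted p = 0.032) and *Psmc4* had the same fitted change of 0.27 with a larger SE of 0.10 and did not pass (adjusted p = 0.099). In a fit with the replicate number as a block in the aged groups all 6 ATPases passed, where 15.8% of all genes passed. *Psmc4* had a limma adjusted p of 0.013 in that fit (range over the alternatives 0.013 to 0.88). With TMM-type factors the 6 genes were still fitted higher, with a median of 0.09, and none passed.

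*Psmd1*, *Psmd2* and *Psmd4* are the other genes of the base of the cap under the naming rule, the former pair as scaffolds and *Psmd4* as a ubiquitin receptor. *Psmd1* was at 79.3, 99.8, 105 and 107 TPM in normal and 119, 142, 137 and 144 TPM in abnormal samples, with 101, 107, 106 and 98.4 TPM in Young samples. No abnormal sample overlapped another group. The change of 0.47 (SE 0.09, limma adjusted p = 0.0088) had the smallest p of the 34 genes, and *Psmd1* alone of them was called higher with TMM-type factors, by 0.25 (adjusted p = 0.049, range over the alternatives 0.00044 to 0.053).

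*Psmd4* was at 166, 184, 212 and 226 TPM in normal, 219.9, 283, 306 and 317 TPM in abnormal and 190.4, 189, 181 and 185 TPM in Young samples. It rose by 0.51 (SE 0.11, limma adjusted p = 0.015), a ratio of means of 1.43, with abnormal 1 just below normal 4. *Psmd2* had a fitted change of 0.42 (SE 0.13) that did not pass (limma adjusted p = 0.055, and 0.0034 with the replicate block, the lowest of its alternatives, whose highest was 0.36).

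The lid genes under the naming rule are *Psmd3*, *Psmd6*, *Psmd7*, *Psmd8* and *Psmd11* to *Psmd14*. Of these, *Psmd14* is the deubiquitinase that cuts the ubiquitin chain from the substrate. *Psmd8*, a scaffold subunit, was at 218, 245, 282 and 257 TPM in normal and 288, 437, 442 and 378 TPM in abnormal samples. Its change of 0.61 (SE 0.14, limma adjusted p = 0.016), a ratio of means of 1.54, was the largest of the 34. In Young samples it was at 240.4, 301, 271 and 216 TPM, so that Young 2 lay above abnormal 1. *Psmd6* was at 238, 231, 249 and 251 TPM in normal, 267, 285, 280.1 and 302 TPM in abnormal and 229, 225, 237 and 238 TPM in Young samples. The abnormal samples lay above all others, while normal and Young samples overlapped, and the rise was the smallest among the genes that passed, 0.23 (SE 0.06, limma adjusted p = 0.024), and the fitted change was 0.00 with TMM-type factors.

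In all, 4 of the 8 lid genes passed, where 7.36% of all genes tested were called higher. *Psmd13* rose by 0.29 (SE 0.07, limma adjusted p = 0.026) and *Psmd7* by 0.27 (SE 0.08, limma adjusted p = 0.048). *Psmd14*, *Psmd3*, *Psmd11* and *Psmd12* had fitted changes of 0.31, 0.36, 0.41 and 0.17 and adjusted p of 0.064, 0.079, 0.051 and 0.16. Under the replicate block the first 3 of these passed as well, where 15.8% of all genes passed. With TMM-type factors no lid gene passed, and the median of the lid was 0.07.

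The chaperones of cap assembly did not move together. *Psmd9*, which handles a pair of ATPases during assembly, was at 12.9, 14.8, 15.7 and 17.7 TPM in normal and 11.8, 13.3, 13.6 and 13.0 TPM in abnormal samples, and at 18.7, 15.7, 18.2 and 16.2 TPM in Young samples. The abnormal samples overlapped normal 1 but lay below all Young samples. It was the cap gene with a fitted fall, of -0.21 against normal fibers (SE 0.10, limma adjusted p = 0.22), and of -0.43 with TMM-type factors, where it passed (adjusted p = 0.022, range over the alternatives 0.02 to 0.64). *Psmd5* was at 8.78, 9.19, 8.29 and 12.0 TPM in normal and 14.2, 11.2, 8.91 and 13.3 TPM in abnormal samples, with 10.3, 11.4, 9.06 and 10.3 TPM in Young samples, and the groups overlapped (0.28, SE 0.15, limma adjusted p = 0.26). *Psmd10* was at 10.1, 9.07, 7.99 and 8.21 TPM in normal, 14.1, 9.96, 9.94 and 11.3 TPM in abnormal and 10.5, 8.68, 10.4 and 9.35 TPM in Young samples. Its change of 0.32 (SE 0.13) did not pass (limma adjusted p = 0.14). At these low levels log2(TPM + 1) understates a fold change.

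The 7 beta subunits form the inner rings of the core, and *Psmb5*, *Psmb6* and *Psmb7* carry the chymotrypsin-like, caspase-like and trypsin-like sites. *Psmb1*, a structural beta subunit, was the single core gene that passed: it was at 105, 100.2, 97.8 and 104 TPM in normal and 112, 118, 121 and 128 TPM in abnormal samples, with 94.4, 98.5, 84.9 and 96.6 TPM in Young samples. The abnormal samples did not overlap the others, and the change was 0.24 (SE 0.06, limma adjusted p = 0.037). The TMM-type factors reduced it to 0.01 (adjusted p = 0.98, range over the alternatives 0.024 to 0.98).

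*Psmb6* was at 491, 466, 466 and 495 TPM in normal, 501, 554, 536 and 615 TPM in abnormal and 463, 466, 444 and 475 TPM in Young samples. The abnormal samples lay above all others, while normal and Young samples overlapped, yet the change of 0.20 (SE 0.07) did not pass (limma adjusted p = 0.074, and 0.03 with the replicate block, range over the alternatives 0.027 to 0.92), and it was -0.03 with TMM-type factors. *Psmb5* was at 335, 303, 285 and 325 TPM in normal and 307, 350.1, 331 and 410.4 TPM in abnormal samples, against 304, 315, 318 and 321 TPM in Young samples (0.16, SE 0.08, limma adjusted p = 0.26). *Psmb7* was at 247, 238, 224 and 217 TPM in normal, 234, 259, 255 and 249 TPM in abnormal and 229, 229, 227 and 224 TPM in Young samples (0.11, SE 0.06, limma adjusted p = 0.28). Both overlapped between the aged groups, and both were fitted lower with TMM-type factors, at -0.07 and -0.12. *Psmb2*, named here after its values were seen, was the core gene with no fitted rise (-0.01, SE 0.07, limma adjusted p = 0.95).

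Of the alpha subunits, which form the outer rings and the gate, none passed in TPM as deposited. Their median change of 0.14 lay near the 0.10 of all genes and below the 0.20 of genes with a group mean of at least 5 TPM. *Psma6* was at 298, 274, 251 and 300.3 TPM in normal and 309, 307, 328 and 356 TPM in abnormal samples, against 279.7, 279, 276 and 278 TPM in Young samples. The abnormal samples were above all others, with a change of 0.21 (SE 0.07, limma adjusted p = 0.075, and 0.026 with the replicate block, the lowest of its alternatives, whose highest was 0.96). *Psma2* was at 79.6, 73.5, 66.3 and 70.2 TPM in normal, 82.3, 78.5, 83.4 and 87.2 TPM in abnormal and 69.6, 67.2, 66 and 69.2 TPM in Young samples, with abnormal 2 below normal 1 (0.19, SE 0.07, limma adjusted p = 0.084). Both had fitted changes just below 0 with TMM-type factors, -0.02 and -0.03.

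**Figure D3:**
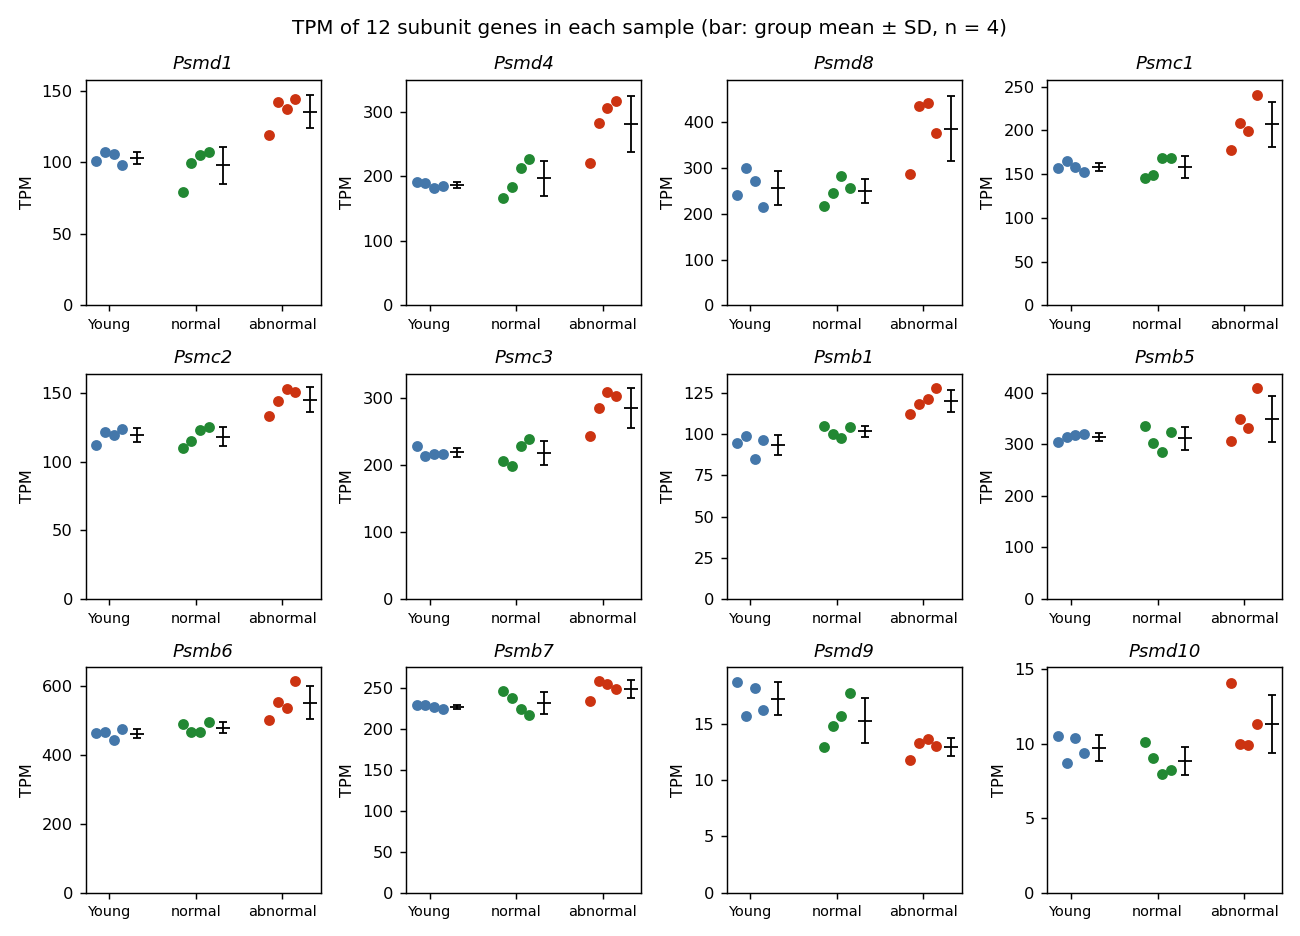
TPM of 12 subunit genes in each of the 4 Young, 4 Fluo-4 normal and 4 Fluo-4 abnormal samples, shown as points, with the group mean ± SD beside them and an axis that starts at 0. The abnormal samples of *Psmd1*, *Psmc1*, *Psmc2*, *Psmc3*, *Psmb1* and *Psmb6* lie above all normal samples, those of *Psmb5*, *Psmb7* and *Psmd10* overlap them, and *Psmd9* is lowest in abnormal fibers; with TMM-type factors the abnormal and normal samples of these genes overlap except for *Psmd1* and *Psmd9*.

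The count of genes whose abnormal samples all lay above the normal samples was 9 of 20 cap genes and 3 of 14 core genes (*Psma6*, *Psmb1* and *Psmb6*) in TPM as deposited, where 11.5% of all genes did so. With TMM-type factors it was 1 of 20 cap genes (*Psmd1*) and 0 of 14 core genes, where 4.32% of all genes did so. By pairs of equal replicate number, which may share a mouse, 19 of the 20 cap genes were higher in the abnormal sample in each of the 4 pairs, and *Psmd9* was the exception in every pair. The core genes that were higher numbered 9, 13, 12 and 14 of 14. With TMM-type factors the counts were 7, 16, 18 and 16 cap genes and 0, 4, 9 and 12 core genes, so that pair 1, which holds the normal sample of the lowest factor, had no core gene higher. Between the aged groups 69.6% of all genes were fitted higher in abnormal fibers in TPM as deposited, and 49.9% with the factors. The share of all genes higher within a pair was not counted.

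The difference between cap and core within a sample does not depend on the scaling of that sample, apart from the pseudocount. The mean log2(TPM + 1) of the cap minus that of the core was -1.25, -1.09, -1.01 and -0.99 in Fluo-4 normal samples 1 to 4, -0.97, -0.86, -0.87 and -0.94 in Fluo-4 abnormal samples 1 to 4, and -1.02, -0.98, -0.98 and -1.07 in Young samples 1 to 4. Group means were -1.09 ± 0.12, -0.91 ± 0.05 and -1.01 ± 0.04 (SD, n = 4). The 4 abnormal samples held the highest values, though abnormal 1 stood just above Young 2 and 3, and Young and normal samples overlapped. Within the 4 pairs the abnormal sample exceeded the normal one by 0.28, 0.23, 0.14 and 0.05, so the size of the difference varied with the normal sample it was set against. The median change of the cap exceeded that of the core by 0.15 between abnormal and normal fibers, by 0.16 with TMM-type factors, by 0.13 without Fluo-4 normal 1 and by 0.18 without the 3 chaperones. No p is given for these values, since the genes were chosen with results of these data known.

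**Figure D4:**
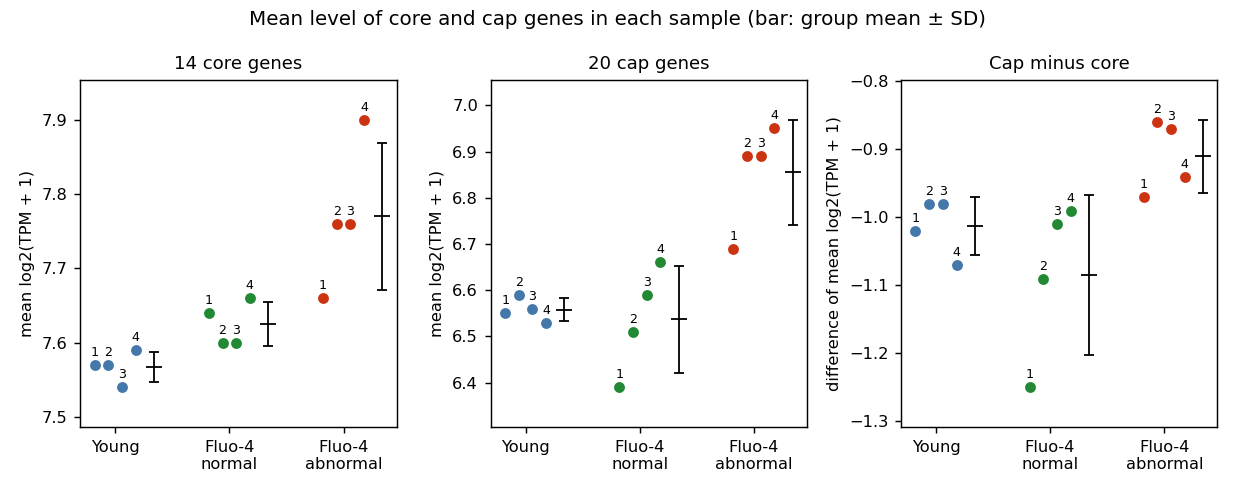
Mean log2(TPM + 1) of the 14 core genes, of the 20 cap genes and their difference in each sample (points with replicate numbers), with the group mean ± SD (n = 4) beside them. Abnormal samples lie at 7.66 to 7.90 for the core and 6.69 to 6.95 for the cap, and their difference, -0.97 to -0.86, lies above the -1.25 to -0.99 of normal samples; with TMM-type factors the median change of the core genes turns to -0.06.

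As a share of all TPM the cap genes summed to 0.221%, 0.239%, 0.26% and 0.267% in normal and 0.271%, 0.331%, 0.337% and 0.34% in abnormal samples. The core genes summed to 0.32%, 0.309%, 0.308% and 0.323% in normal and 0.319%, 0.348%, 0.346% and 0.385% in abnormal samples. The cap shares did not overlap between the aged groups, whereas the core share of abnormal 1 lay within the normal range. More RNA of these genes per fiber and less RNA of other genes cannot be told apart from TPM.

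Fluo-4 normal fibers were next compared with Young fibers, which asks what age changed in fibers without aberrant staining. None of the 34 genes passed (limma, 2 with an unadjusted p under 0.05), where 1.15% of all genes tested were called and 12.9% had an unadjusted p under 0.05. The core median was 0.05, the cap median -0.02 and the median of all genes -0.02. The 2 genes with an unadjusted p under 0.05 were *Psmb3*, a structural beta subunit (0.21, SE 0.08, limma adjusted p = 0.25), and the lid subunit *Psmd12* (0.17, SE 0.07, limma adjusted p = 0.31). *Psmb3* was at 318, 316, 309 and 323 TPM in Young and 370.1, 347, 381 and 371 TPM in normal samples. Those samples did not overlap, as was the case for *Psmd12* and for no other subunit, against 3.03% of all genes higher in normal fibers without overlap. With TMM-type factors no subunit stood apart in this way, where 3.90% of all genes did. Of the core genes 11 of 14 were fitted higher and of the cap genes 14 of 20 lower, where 43.5% of all genes were fitted higher, in a range of all 34 from -0.17 to 0.21, and with TMM-type factors both medians were above 0, at 0.10 and 0.03.

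Against Young fibers, 15 subunit genes were higher and 1 was lower in Fluo-4 abnormal fibers, where 6.09% of all genes were called higher, 2.41% lower and 8.50% in either direction. This comparison shares its abnormal samples with the first one and is not independent of it. The higher genes were 4 core genes, *Psma2*, *Psmb1*, *Psmb3* and *Psmb6*, and 11 cap genes. The median change was 0.22 for the core and 0.32 for the cap, and 0.07 for all genes. Among genes with a group mean of at least 5 TPM the median was 0.12. In that range 962 of 6348 genes were called higher, with 6 core and 15 cap genes among them. With TMM-type factors only *Psmd4* and *Psmd8* were called higher and *Psmd9* lower, where 3.09% and 4.80% of all genes were, with medians of 0.05 for the core and 0.14 for the cap, and with the replicate block 24 were called higher and 1 lower, where 10.2% and 3.66% of all genes were. Leaving out Young 1, 3 or 4 left 10, 10 and 9 calls, and leaving out Fluo-4 abnormal 2 or 4 left 9 and 7. The share of all genes called in these fits with a sample left out is not given here.

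*Psmd4* had the smallest p of the cap genes, with a change of 0.58 (SE 0.11, limma adjusted p = 0.0078). The TMM-type factors left 0.41 (adjusted p = 0.037, the highest of its alternatives, whose lowest was 8.4e-05). *Psmd8* changed by 0.58 (SE 0.14, limma adjusted p = 0.021), *Psmd6* by 0.29 (SE 0.06, limma adjusted p = 0.0079) and *Psmd12* by 0.34 (SE 0.07, limma adjusted p = 0.011). Among the core genes *Psmb1* rose by 0.35 (SE 0.06, limma adjusted p = 0.0054). *Psmb3*, at 347, 433, 422 and 468 TPM in abnormal samples, rose by 0.39 (SE 0.08, limma adjusted p = 0.0096), and its Young samples all lay below, at 309 to 323 TPM. *Psma2* rose by 0.28 (SE 0.07, limma adjusted p = 0.02) and *Psmb6* by 0.25 (SE 0.07, limma adjusted p = 0.031).

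*Psmd9* fell by 0.38 on the log2 scale (SE 0.10, limma adjusted p = 0.039), a ratio of means of 0.753, and was the single subunit gene called lower against Young fibers. Its fall was -0.54 with TMM-type factors (adjusted p = 0.0046, the lowest of its alternatives, whose highest was 0.11). In this comparison 18 of the 34 genes were higher and 1 lower without overlap, where 12.2% and 3.95% of all genes were, and with TMM-type factors 2 were higher and 1 lower, where 6.22% and 8.46% of all genes were.

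Promoter stretches of 4 of these genes are shown because they hold motifs that were searched for: *Psmd4* and *Psmd8* had the largest changes, *Psmb6* was the highest core gene, and *Psmd9* went down. Each is 100 bases on the gene's own strand, 5′ to 3′, upstream of the start site of RefSeq and outside every GENCODE exon. Capitals mark the motif letters.
Psmd4: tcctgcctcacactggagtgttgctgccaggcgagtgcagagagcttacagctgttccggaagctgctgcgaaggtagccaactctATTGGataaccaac
Psmd8: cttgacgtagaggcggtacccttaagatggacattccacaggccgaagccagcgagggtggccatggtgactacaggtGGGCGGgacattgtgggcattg
Psmb6: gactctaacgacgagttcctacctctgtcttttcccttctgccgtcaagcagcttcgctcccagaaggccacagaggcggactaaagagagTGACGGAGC
Psmd9: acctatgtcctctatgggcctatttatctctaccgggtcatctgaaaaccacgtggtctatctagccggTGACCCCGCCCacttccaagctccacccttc

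In GRCm39 these lie at chr3:94950007-94950106 (minus strand), chr7:28880136-28880235 (minus strand), chr11:70416083-70416182 (plus strand) and chr5:123366153-123366252 (plus strand). The motifs TGACNNNGC, CCAAT and GGGCGG were searched on both strands. The first is the core of the antioxidant response element, which NRF1 (*Nfe2l1*), the activator known to raise proteasome genes when degradation falls short, can bind with a small MAF protein. The others are common promoter boxes, bound by NF-Y and by SP1-type factors. The windows ran from 250 bases before to 50 bases after the RefSeq start and were held for 28 of the 34 genes.

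The antioxidant response core was in the windows of 5 of 28 subunit genes (17.9%), against 14% of 27025 genes. CCAAT was in 11 of 28 (39.3%), against 41.1%, and GGGCGG in 18 of 28 (64.3%), against 38.2%, with 5 of 11 core and 13 of 17 cap genes. In *Psmd9* the antioxidant response core starts 31 bases before the start site and shares bases with a GGGCGG match on the other strand. In *Psmb6* it starts 9 bases before the start site. A match is a string of letters only, and binding was not measured.

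The related genes of the pathway were 43 by a list of names, of which 41 were tested (*Psmb11* and *Nfe2l3* were under the low-expression limit). Between abnormal and normal fibers 7 were called higher and 1 lower, against the 7.36% and 1.99% of all genes. *Adrm1*, a ubiquitin receptor of the cap that the naming rule leaves out, was at 89.4, 94.0, 104 and 106 TPM in normal and 103, 133, 137 and 139 TPM in abnormal samples, with abnormal 1 inside the normal range. It rose by 0.37 (SE 0.10, limma adjusted p = 0.038), in the range of the cap genes. It was the only gene called of the 4 listed as other cap subunits and cap-bound deubiquitinases. *Sem1*, also a cap subunit outside the naming rule, was fitted lower, at -0.13 (SE 0.07, limma adjusted p = 0.3). With TMM-type factors *Sem1* was at -0.35 (limma adjusted p = 0.099). *Uchl5* and *Usp14* had fitted changes of 0.17 and 0.32 in TPM as deposited.

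*Pomp* and *Psmg2*, chaperones of core assembly, were higher in every abnormal sample than in every normal sample. *Pomp* was at 123, 123, 131 and 125 TPM in normal and 149, 160.3, 139 and 149 TPM in abnormal samples, and rose by 0.25 (SE 0.06, limma adjusted p = 0.022). *Psmg2* rose by 0.29 (SE 0.08, limma adjusted p = 0.035), from 39.6 ± 2.2 to 48.7 ± 2.47 TPM (SD, n = 4). Both lost the call with TMM-type factors, with changes of 0.02 and 0.07. *Psmg4*, of the same group, had a change of 0.23 (SE 0.11, limma adjusted p = 0.22) and passed against Young fibers (0.44, SE 0.11, limma adjusted p = 0.026).

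*Psme1*, a subunit of the activator that can take the place of the cap, went the other way. It was at 40.1, 31.3, 28.9 and 37.9 TPM in normal and 29.5, 24.0, 19.5 and 25.4 TPM in abnormal samples, with 29.4, 30.3, 30.1 and 33.4 TPM in Young samples. Abnormal 1 lay just above normal 3, and the gene fell by 0.48 on the log2 scale (SE 0.13, limma adjusted p = 0.031). With TMM-type factors the fall was -0.70. *Psme2*, its partner, had a change of 0.04 (SE 0.10, limma adjusted p = 0.82).

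The immunoproteasome subunits, which replace the catalytic beta subunits mainly in immune cells, were far below them. *Psmb8*, the counterpart of *Psmb5*, ranged from 0.247 to 2.57 TPM and *Psmb9*, that of *Psmb6*, from 0 to 0.951 TPM over the 12 samples. *Psmb10*, that of *Psmb7*, was at 27.8, 30.2, 32.5 and 22.9 TPM in normal and 23.2, 20.5, 21.9 and 24.5 TPM in abnormal samples. None of the 3 passed in any comparison in TPM as deposited, and *Psmb10* had the lowest adjusted p, 0.095, for a change of -0.31 (SE 0.11). With TMM-type factors *Psmb10* passed between the aged groups, at -0.53 (limma adjusted p = 0.016, range over the alternatives 0.013 to 0.38), and its abnormal samples then lay below all normal samples. These levels stand beside the summed immune markers given above, which were higher in every aged sample than in every Young sample, and their part in these levels was not tested. The markers differed: from Young to Fluo-4 normal samples the mean of *Lyz2* went from 0.743 to 7.46 TPM, of *Cd74* from 0.579 to 1.46 TPM and of *Ptprc* from 0 to 0.0338 TPM. That of *Cd3e* went from 1.17 down to 0.718 TPM, and *Cd68* (0.282 TPM) and *Adgre1* (0 TPM) were equal in both.

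Of the regulators, *Mafg*, a small MAF partner of NRF1, rose by 0.58 (SE 0.16, limma adjusted p = 0.036), from 13.3, 19.0, 24.0 and 20.6 TPM in normal to 24.1, 29.4, 31.6 and 29.8 TPM in abnormal samples. The groups did not overlap, though abnormal 1 and normal 3 were nearly equal. *Nfe2l1* was at 67.4, 109, 100 and 85.9 TPM in normal and 93.0, 157, 152 and 99.4 TPM in abnormal samples, which overlapped (0.45, SE 0.19, limma adjusted p = 0.15). All 8 regulators tested were fitted higher, as were 69.6% of all genes, with a median of 0.42, and 1 passed, where 9.35% of all genes did. With TMM-type factors the median was 0.23 and none passed (limma, 1 with an unadjusted p under 0.05). With the replicate block 5 of the 8 passed, where 15.8% of all genes did. *Nfe2l1* was among them (limma adjusted p = 0.014, range over the alternatives 0.014 to 0.5). With the block and TMM-type factors 1 was called higher, where 522 of 14428 genes were.

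Of the 13 genes for ubiquitin and for delivery of substrates, 3 were called higher in TPM as deposited, where 7.36% of all genes were. These were *Ubb*, a polyubiquitin gene, and *Vcp* and *Nploc4*, the segregase that extracts ubiquitylated proteins and its cofactor. *Ubb* was at 1845, 2052, 2271 and 2077 TPM in normal and 2368, 2753, 2951 and 2804 TPM in abnormal samples, and at 1848 to 1893 TPM in Young samples. No abnormal sample overlapped the others, and the change was 0.40 (SE 0.08, limma adjusted p = 0.011). *Nploc4* was at 21.6, 37.0, 35.2 and 37.4 TPM in normal and 38.4, 54.8, 61.9 and 52.4 TPM in abnormal samples. It rose by 0.66 (SE 0.17, limma adjusted p = 0.029), and against Young fibers, at 25.0 to 30 TPM, by 0.89 (SE 0.17, limma adjusted p = 0.0067). *Vcp* rose by 0.39 (SE 0.11, limma adjusted p = 0.038). With TMM-type factors none of the 3 passed between the aged groups, with changes of 0.17 for *Ubb*, 0.44 for *Nploc4* and 0.16 for *Vcp*. Against Young fibers 4 of the 41 genes were called higher (*Ubb*, *Nploc4*, *Pomp* and *Psmg4*), where 6.09% of all genes were, and between normal and Young fibers none was (limma, 5 with an unadjusted p under 0.05, as had 12.9% of all genes). With the replicate block 17 of the 41 were called between abnormal and normal fibers, 13 against Young fibers and 2 between normal and Young fibers, where 15.8%, 13.8% and 3.55% of all genes were. The 8 calls between the aged groups became 3, 3 and 5 without Fluo-4 normal 1, 2 or 4 and 1, 3 and 2 without Fluo-4 abnormal 2, 3 or 4, and the 4 calls against Young fibers became 2 without Young 4 and 7 without Fluo-4 abnormal 1. The share of all genes called in these fits with a sample left out is not given here.

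**Figure D5:**
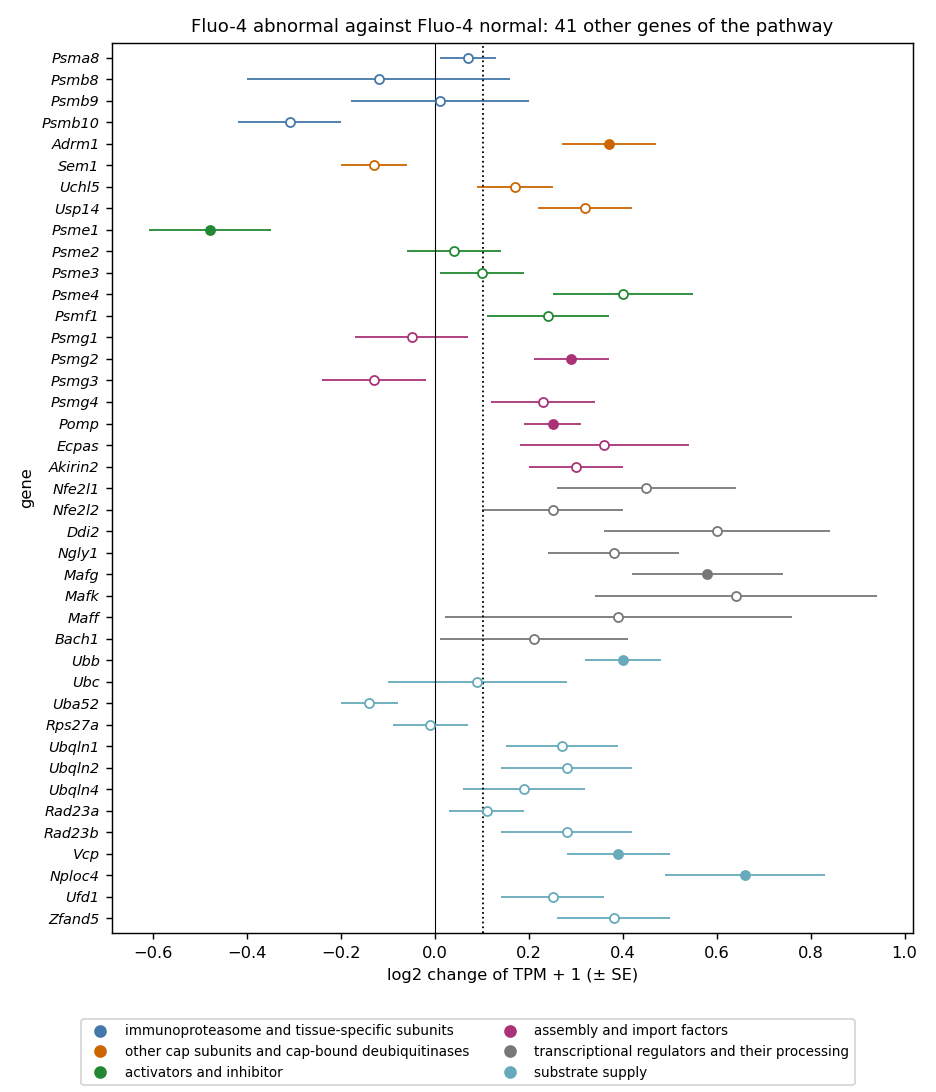
Log2 change of TPM + 1 (± SE) between 4 Fluo-4 abnormal and 4 Fluo-4 normal samples of 41 related genes, colored by group, with filled points for an adjusted p under 0.05 and a dotted line at the median of all genes tested. *Nploc4*, *Mafg*, *Ubb*, *Vcp*, *Adrm1*, *Psmg2* and *Pomp* rose and *Psme1* fell; with TMM-type factors *Psme1* and *Psmb10* passed, both lower.

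Reads of 6 subunit genes could be shared with near-identical copies elsewhere in the genome: *Psma4*, *Psma5*, *Psmb3*, *Psmb5*, *Psmd2* and *Psmd11*, so that their levels are uncertain to that extent. The genes listed at those copies did not exceed 3.89 TPM in any sample. Exons of 14 subunit genes overlap another gene by at least 100 bases, mostly on the other strand, and as the strand setting of the counting is not given in the sources used here, the reads of both cannot be told apart. The overlap of most weight was that of *Psmd13* with *Cox8b*, a respiratory chain gene, over 1231 bases, since *Cox8b* stood at 4025 TPM in abnormal and 5283 TPM in normal fibers and changed by -0.39 (SE 0.11, limma adjusted p = 0.04), opposite to *Psmd13*. *Psmd13* also shares 458 bases with *Sirt3*, which stood at 13.7 TPM in abnormal and 21.6 TPM in normal fibers (-0.62, SE 0.13, limma adjusted p = 0.012). *Psmc3* shares 215 bases with *Slc39a13*, *Psmc5* 1269 bases with *Smarcd2* and *Psmb7* 2817 bases with *Nek6*, and these 3 partners each stayed at or under 17.7 TPM.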

How the data were processed

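RNA from 12 samples, 4 each of Young, Fluo-4 normal and Fluo-4 abnormal EDL fibers, was amplified with SMART-Seq v4 from 10 ng and processed by the authors with DRAGEN 4.3 on GRCm39. The deposited values are TPM per gene symbol (55487 entries a sample); the annotation release is not given in the sources used here. No value column was left unused.

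The 34 subunit genes and the related lists were chosen with earlier results of these data known. Protein-coding and mitochondrially encoded genes with a mean of at least 0.02 TPM in a group (14428) were tested on log2(TPM + 1) in 1 fit of all 3 groups with limma 3.58.1 (R 4.3.3; trended prior, 9 residual degrees of freedom, two-sided), with Benjamini-Hochberg adjustment over all genes and a threshold of 0.05. This fit was tested on simulated data with independent noise in each gene and sample. That simulation held no replicate pairs and no shift in scaling, so it does not bear on those alternatives. Groups come from the sample labels.

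Sample values are given for the genes with the smallest p in each comparison (up to 8 between the aged groups, up to 4 elsewhere) and in each ring or part, the catalytic subunits, the cap chaperones, the highest and lowest genes, related genes that passed, and *Psmb8*, *Psmb9*, *Psmb10*, *Nfe2l1* and *Pomp*.

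Whether equal replicate numbers pair the aged groups was checked over 4468 genes with a mean of at least 10 TPM. Deviations from the group means correlated at 0.51, 0.42, 0.46 and 0.33 for equal numbers, and at -0.43 to 0.28 for unequal ones, so they were treated as pairs in an alternative with the number as a block. Other alternatives were a pseudocount of 0.1, no filter or one of 5 TPM, all annotated genes, only the groups compared, sample weights, the *Myh4* share as a covariate each sample left out, and 2 other scalings, one without the mitochondrially encoded genes and one by TMM-type factors that trimmed 30% of ratios and 5% of levels. The block with TMM-type factors was added after seeing the data. Near-identical copies (95% identity or more over 100 bases and 50% of a transcript) were found by BLAST 2.17.0, overlaps were read from GENCODE M39, and promoters are RefSeq windows on GRCm39.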

Additional observations from a re-analysis of the deposited data

Results flagged for a closer look

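Of 150 groups of 4 samples checked for a sample far from the other 3, 5 held one, and chance alone marks about 1 in 20 groups. *Psma4* was at 164 TPM in Young 2, against 146 to 149 TPM in the other Young samples. *Psmc5* was at 160.4 TPM in Fluo-4 abnormal 1, against 197 to 204 TPM in the other abnormal samples. *Psmd7* was at 139 TPM in Fluo-4 normal 1, against 161 to 164 TPM. *Psmd13* was at 66.2 TPM in Young 3, against 68.1 to 68.4 TPM. *Nploc4* was at 21.6 TPM in Fluo-4 normal 1, against 35.2 to 37.4 TPM, and its change between abnormal and normal fibers was 0.47 without that sample.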

How the results depend on the processing

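Between abnormal and normal fibers, where 12 subunit genes passed, 2 did so with TMM-type factors, 6 when scaled without mitochondrially encoded genes, 1 in a fit of only the groups compared, 2 with the *Myh4* share as a covariate, 19 with the replicate block, 4 with the block and TMM-type factors, and 3 to 19 with 1 sample left out. Of the 41 related genes, of which 8 were called, 2, 2, 1, 17 and 4 were called with TMM-type factors, without mitochondrially encoded genes, with only the groups compared, with the block and with the block and TMM-type factors, 5 with no filter, 4 over all annotated genes and 1 to 12 with 1 sample left out (1 without Fluo-4 abnormal 2). Against Young fibers the 16 subunit calls became 3 with TMM-type factors, 25 with the block, 4 with both and 7 to 22 with 1 sample left out; the 4 related calls became 9 with the 5 TPM filter, 8 with only the groups compared, 13 with the block, 11 with the block and TMM-type factors, 10 with sample weights and 2 to 7 with 1 sample left out. Between normal and Young fibers no subunit gene passed under any alternative, and 2 related genes did with the block, 1 with the block and TMM-type factors and 1 with sample weights. The cause of these changes was not tested. Of all genes, 9.35% were called between the aged groups in the main fit, and 15.8% with the block. With TMM-type factors 2.12% were called higher and 3.76% lower. For the fit of only the groups compared, the *Myh4* covariate and samples left out, the share of all genes is not given here. Those counts therefore cannot be set against it.

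Between abnormal and normal fibers the core median of 0.16 was -0.06 with TMM-type factors, with or without the replicate block, and 0.10 without mitochondrially encoded genes, and the cap median of 0.31 was 0.10 with TMM-type factors. The cap median minus the core median, 0.15, was 0.24 with the *Myh4* covariate and 0.13 to 0.20 with 1 sample left out. Against Young fibers the core and cap medians were 0.05 and 0.14 with TMM-type factors, with or without the block. Fitted changes turned negative with TMM-type factors, with or without the block, for *Psmb3* (-0.05), *Psma6* (-0.02), *Psma2* (-0.03), *Psmb6* (-0.03), *Psmb5* (-0.07), *Psmb7* (-0.12) and *Psmb9* (-0.06). *Psmb9* was also at 0.00 without mitochondrially encoded genes, -0.02 with a pseudocount of 0.1, -0.23 with the *Myh4* covariate and -0.11 to 0.14 with 1 sample left out, and *Psmb8* was at -0.33 to 0.12 with 1 sample left out. Of the other values for single genes and lists, 746 kept their direction and side of the threshold, 205 lost the call, 13 gained it and 38 changed in size. Between abnormal and normal fibers the count of core genes called was 0 to 3 with 1 sample left out, and that of cap genes 3 to 16. TPM holds no depth, and 4 samples a group limit the precision.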
